A study of Mus musculus with 17 samples.

Results

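The genes examined here are 10 effectors that neurons switch on after synaptic activity: Arc, Homer1 and Nptx2, whose products act at synapses, Scg2, Vgf, Inhba and Pcsk1, which belong to the secretory pathway, and Npas4, Btg2 and Ier2, whose products act in the nucleus or on transcripts. They were taken as a named list. Overlapping peaks of the 17 libraries were merged over the genome. Merged regions were collected where they overlapped a member's gene body (mm10, GENCODE vM21) or the 20 kb on either side of it. This gave 146 regions, of which 86 were kept because at least 2 libraries of 1 group had called them. They are 0.0583% of the 147420 regions kept across the genome. The 10 genes stand among 21755 protein-coding genes.

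ATAC-seq, which tags open DNA with adapters carried by a transposase, was run on NeuN+ (neuronal) nuclei from the nucleus accumbens of 52- to 54-day-old mice of the C57BL/6 strain (C57BL/6J in the study's methods). Cocaine groups received 10 mg/kg i.p. and were sacrificed 1 h later, and control groups received no cocaine and stand for 0 h, so that the drug, the injection and the handling cannot be told apart. Diestrus females (the low-estrogen stage) gave 3 control and 3 cocaine libraries, proestrus females (the high-estrogen stage) 3 and 3, and males 3 and 2. Each library pooled 3 animals. Diestrus cocaine library 2 had no stage among its labels, and its title alone placed it. Nuclei were sorted as neurons only, so accessibility is an average over all neuron types of the region, and fewer nuclei of a type and less open chromatin per nucleus cannot be told apart.

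Depolarization and calcium entry act on effector genes through transcription factors that are already in place, among them CREB at the cAMP response element (CRE) and SRF at the CArG box, and later through the AP-1 dimers of the Fos and Jun families. Arc controls the removal of AMPA receptors from synapses, Homer1 scaffolds metabotropic glutamate receptors, and the pentraxin Nptx2 clusters AMPA receptors. Scg2 and Vgf are granins stored in dense-core vesicles and cut into peptides by the prohormone convertase that Pcsk1 encodes, while Inhba encodes a subunit of activin. In the nucleus accumbens such genes are known as part of the response of medium spiny neurons to psychostimulants.

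The libraries held 75458 to 157005 peaks, and the background pileup recovered from the deposited fold enrichments, a measure of relative depth, ran from 6.26 to 9.55 reads. Both male cocaine libraries had the fewest peaks (87707 and 75458). All 5 neuronal and all 8 medium spiny neuron marker genes had a promoter peak in all 17 libraries. Of the other marker genes, 2 of 8 for oligodendrocytes had one in all libraries (1 to 17 libraries a gene), and none of 5 for astrocytes, 5 for microglia and 4 for endothelium did. The 4 endothelial genes, 4 of the microglial and 3 of the astrocyte genes had a peak in no library, while the remaining microglial gene had one in 3 libraries and the highest astrocyte gene in 16.

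Regions are named by their gene and by a distance from its annotated start, counted in the direction of transcription. That distance is to the summit of the region's strongest peak in any of the 17 libraries. A region can reach past the 20 kb, and the summits of Ier2 +23.3 kb and Btg2 -20.2 kb lie outside them. Motif windows and GC content are centred on the same summit. The following sequences are the stretches around 4 summits that carry a motif of an activity-regulated factor, 100 bases on either side of the summit on the forward strand of mm10. Capitals mark the AP-1 motif (TGAGTCA or TGACTCA) in the first 3 and the CArG box in the Arc region, which lies where an enhancer that answers to synaptic activity is known. They are chr1:79432472-79432672, chr1:79450440-79450640, chr13:75113258-75113458 and chr15:74679164-74679364.
Scg2 +7.5 kb: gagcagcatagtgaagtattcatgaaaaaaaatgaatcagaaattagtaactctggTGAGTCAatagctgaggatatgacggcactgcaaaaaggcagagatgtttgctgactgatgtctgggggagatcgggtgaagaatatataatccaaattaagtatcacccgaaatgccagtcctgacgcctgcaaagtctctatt
Scg2 -10.4 kb: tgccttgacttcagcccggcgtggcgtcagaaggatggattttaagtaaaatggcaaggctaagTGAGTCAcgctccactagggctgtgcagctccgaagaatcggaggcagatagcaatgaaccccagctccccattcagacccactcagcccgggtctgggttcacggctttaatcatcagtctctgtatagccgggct
Pcsk1 +23.5 kb: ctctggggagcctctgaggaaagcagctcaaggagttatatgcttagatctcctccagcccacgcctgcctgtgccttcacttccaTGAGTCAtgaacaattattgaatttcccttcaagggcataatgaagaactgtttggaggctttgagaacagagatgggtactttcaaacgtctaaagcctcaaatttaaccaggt
Arc -6.7 kb: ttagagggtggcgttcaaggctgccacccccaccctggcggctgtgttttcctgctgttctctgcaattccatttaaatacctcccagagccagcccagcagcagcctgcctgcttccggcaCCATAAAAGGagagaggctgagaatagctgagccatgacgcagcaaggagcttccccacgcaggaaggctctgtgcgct

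The next sequences are the 250 bases before the RefSeq start of the 3 members that hold a full CRE there, read 5′ to 3′ on the strand of the gene (GRCm38.p6). Capitals mark the CRE (TGACGTCA), which begins 68 bases before the start in Scg2, 78 in Pcsk1 and 166 in Btg2. The Scg2 stretch is chr1:79440027-79440276 and the Btg2 stretch chr1:134079156-134079405, both on the reverse strand. The Pcsk1 stretch is chr13:75089607-75089856 on the forward strand.
Scg2 promoter: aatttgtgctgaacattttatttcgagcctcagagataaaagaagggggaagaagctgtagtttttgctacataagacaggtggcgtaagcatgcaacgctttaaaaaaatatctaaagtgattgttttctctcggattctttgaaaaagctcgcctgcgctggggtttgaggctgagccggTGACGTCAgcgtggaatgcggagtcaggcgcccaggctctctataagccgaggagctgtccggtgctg
Pcsk1 promoter: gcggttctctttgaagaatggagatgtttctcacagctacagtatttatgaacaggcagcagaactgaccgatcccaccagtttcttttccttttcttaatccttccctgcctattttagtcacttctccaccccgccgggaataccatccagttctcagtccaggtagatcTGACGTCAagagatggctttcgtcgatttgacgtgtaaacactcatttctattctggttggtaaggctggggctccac
Btg2 promoter: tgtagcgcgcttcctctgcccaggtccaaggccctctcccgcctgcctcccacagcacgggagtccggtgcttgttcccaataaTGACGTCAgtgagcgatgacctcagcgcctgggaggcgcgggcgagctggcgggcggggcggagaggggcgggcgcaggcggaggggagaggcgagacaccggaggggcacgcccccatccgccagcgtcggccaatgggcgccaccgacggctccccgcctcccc

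RefSeq promoter sequences matched 6 of the 10 members. The motifs were searched on both strands, and the CArG box was searched as its full consensus. Within 100 bp of the summit, AP-1 was found in 5 of the 86 member regions (5.81%, against 10.1% of all kept regions): Scg2 +7.5, Scg2 -10.4 and Scg2 +15.4 kb, Pcsk1 +23.5 kb and Nptx2 -2.7 kb. CRE was found in 3 (3.49%, against 0.498%), the promoters of Scg2 and Pcsk1 and Inhba -3.9 kb. Promoter regions of protein-coding genes held a CRE more often than all kept regions did (2.74% of 11589). The CArG box was found in Arc -6.7 and Btg2 -14.1 kb (2.33%, against 1.12%). Of 32851 RefSeq promoter windows, 4.46% held AP-1, 1.55% CRE and 1.47% the CArG box. These matches describe letters and do not show binding.

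All 10 genes had a peak within 1 kb of their annotated start in all 17 libraries, the controls included. Of protein-coding genes, 53.2% had a region there that every library called. Peak strength is given as the deposited ratio of the pileup at a peak's summit to the background, taken at its highest in the merged region that reaches the start. Across the 17 libraries the median was 33.8 at Arc (23.1 to 49.3), 24.4 at Btg2 (16.3 to 30.7), 19.7 at Npas4 (11.1 to 29.8) and 12.96 at Nptx2 (7.58 to 15.97). Lower medians were found at Scg2 (11.6, 8.13 to 18.1), Inhba (8.39, 5.71 to 11.98) and Pcsk1 (5.82, 4.22 to 8.78). The ranges of neighbours in this order overlapped.

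In the other 3 genes the highest summit of that region lies away from the annotated start. The Homer1 region (35.4, range 27.3 to 43.7) has its summit 4.2 kb inside the annotated gene, at the start that RefSeq gives, and peaks within 1 kb of the annotated start reached a median of 5.63. The Vgf region (25.6, 14.6 to 39.8) has its summit at +6.4 kb, near the 3′ end of the gene, and peaks within 1 kb of the start had a median of 7.87. The Ier2 region (10.2, 5.74 to 14.7) has its summit at -1.3 kb. The values called promoter values of these 3 genes are those of the wider regions. Regions called in all libraries had a median of 6.25 over the genome.

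**Figure D1:**
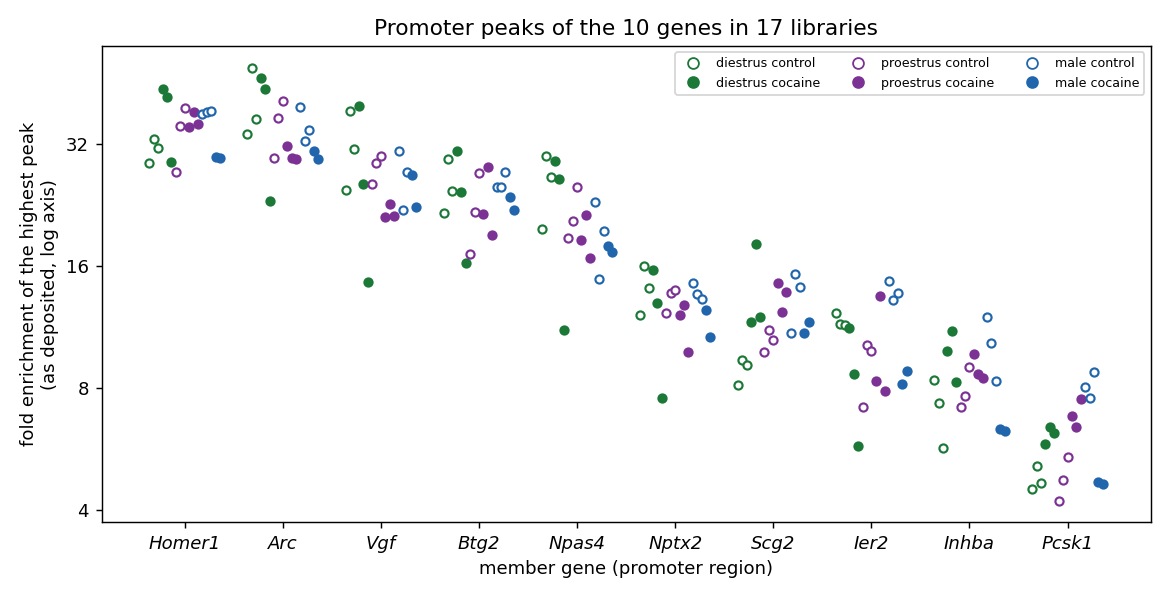
Fold enrichment of the highest peak in the merged region that reaches the start of each of the 10 genes (log axis), with 1 point per library coloured by group. The regions of Homer1 and Arc had the highest medians, 35.4 and 33.8, and that of Pcsk1 the lowest, 5.82, and the summits of the Homer1, Vgf and Ier2 regions lie away from the annotated start.

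Of the 86 kept regions, 35 (40.7%) were called in all 17 libraries, and the genome-wide share was 24.99%. Homer1, whose gene is the longest, held 26 kept regions, 8 of them in all libraries. Btg2 had 10 (6 in all), Scg2 9 (3), Ier2 9 (2), Arc 8 (4), Pcsk1 8 (2), Inhba 5 (2), Npas4 4 (3), Nptx2 4 (3) and Vgf 3 (2). Some windows reach other genes. Vgf +19.8 kb is the promoter of Ap1s1, Ier2 +23.3 kb lies in Cacna1a, and the windows of Npas4 and Ier2 also reach Mrpl11 and Nacc1.

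Peak strength after cocaine was compared on quantile-normalized log2 values of the 36847 regions that all libraries had called, with limma and Benjamini-Hochberg adjustment over all of them at 0.05. In diestrus, 2 of the 35 member regions were higher after cocaine and 2 lower, where 4.65% and 4.59% of all regions were called. In proestrus 1 was higher and 1 lower (2.28% and 1.97% of all regions), and in males none was higher and 2 were lower (3.26% and 4.73%). Averaged over the 3 strata, 3 were higher and 3 lower (6.61% and 6.95%). The shares of members were thus of the same order as those of all regions. The median change over the 35 members was -0.26 in diestrus, -0.09 in proestrus and -0.04 in males, where the median of all regions was between 0.00 and 0.01.

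The scaling of the libraries set the split of these calls. Of all regions called, 50.3% were higher in diestrus, 53.6% in proestrus, 40.8% in males and 48.7% over the strata. Without normalization, when the median of all regions in males was -0.40, these shares were 76.6%, 94.95%, 0.948% and 13.4%, and with median centring the male share was 55.8%. Both male cocaine libraries had low fold enrichments throughout, with medians over all regions of 5.58 and 5.35 where male controls had 7.44 to 8.03. As deposited, male cocaine values lay below all male controls at 23 of the 35 member regions and above them at none, and after normalization they lay below at 8 and above at 6. The male difference had another sign as deposited at 14 member regions, among them 6 of the 10 promoters. Per-library values that follow are as deposited, while differences and tests are on the normalized scale.

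The cocaine effect in males minus the mean effect in females, which is the test of a sex difference, was past the threshold at 5 member regions, 2 with a higher and 3 with a lower value in males (8.17% and 8.29% of all regions). The effect in diestrus minus that in proestrus was past it at none of the 35 (0% of all regions in either direction), and the smallest adjusted p by limma was 0.617.

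**Figure D2:**
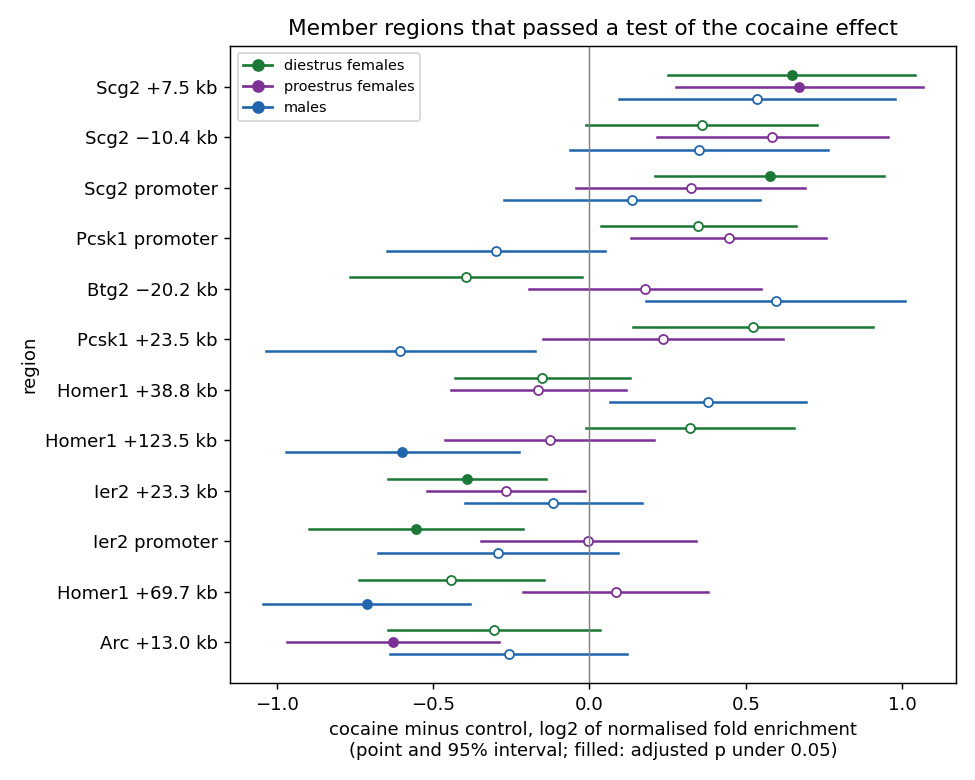
Log2 difference in normalized fold enrichment, cocaine minus control, with its 95% confidence interval, for member regions past the threshold in at least 1 comparison, in diestrus females, proestrus females and males (filled points passed the threshold). Scg2 +7.5 kb lay above 0 in each, and Homer1 +69.7 kb had its lowest value in males, -0.71.

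These counts depended on single libraries. Diestrus cocaine library 3 had the lowest fold enrichment of the 17 libraries at 16 of the 35 member regions, and its median over the promoter regions was 11.5, with 14.5 to 22.7 in the others. Without it no member and 0.0434% of all regions were called in diestrus. Without diestrus cocaine library 1, whose GC-rich member regions lay 0.10 above the mean of the libraries where its 2 companions lay at -0.19 and -0.30, 6 members were higher and 11 lower, with 27.6% of all regions called. When either of the male cocaine libraries was left out, no member was called in males or in the sex comparison. The male arm then holds 1 library, which is assumed to vary like the other groups, and the differences stayed near their size: the male fall at Homer1 +69.7 kb, for example, ranged from -0.77 to -0.66 over all fits that left out 1 library.

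Among the member regions the median change differed with GC content, whose part in these differences was not tested. Over all regions the correlation of the change with GC content was -0.00465 in diestrus, -0.257 in proestrus and 0.137 in males. In diestrus the median change was -0.07 over the 15 member regions under 50% GC and -0.29 over the 20 at or above it, in proestrus 0.05 and -0.24, and in males -0.21 and 0.02. Over all regions, the GC-poorest 20% (up to 41.7%) changed by a median of 0.09, 0.16 and -0.02 in the same order, and the GC-richest 20% (from 61.1%) by 0.08, -0.05 and 0.10. After a correction for GC within each library, added after the data were seen, the mean change at Scg2 +7.5 kb was still past the threshold. The number of member regions called changed under it in proestrus, in males and in the sex comparison, as given at the end.

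**Figure D3:**
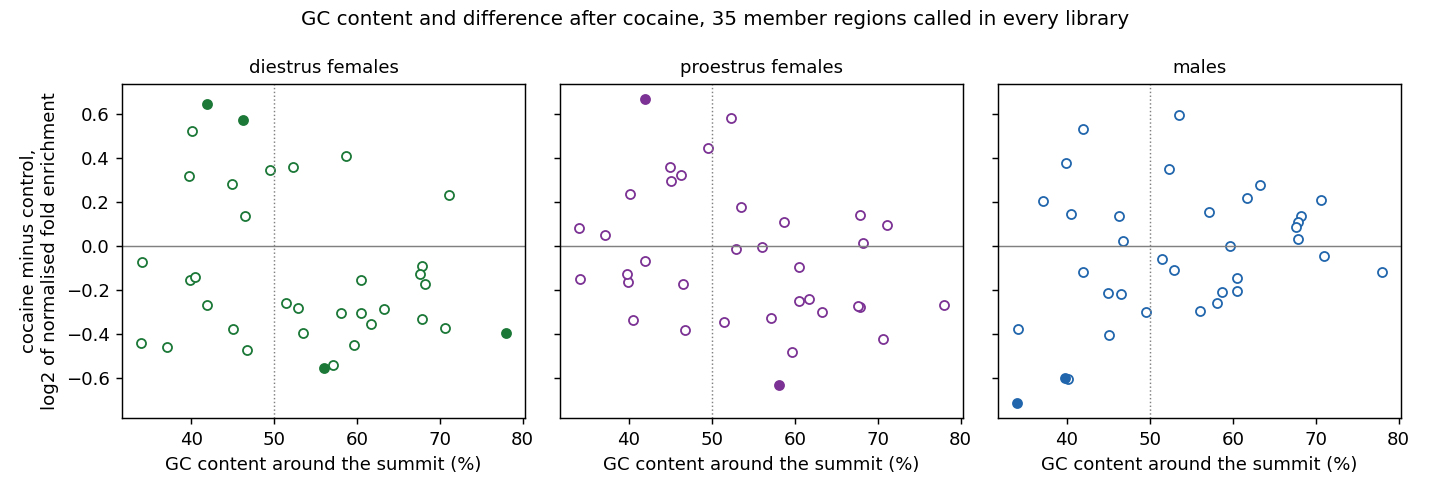
Log2 difference in normalized fold enrichment, cocaine minus control, against GC content of each of the 35 member regions called in all libraries, by stratum. In proestrus the 20 regions with 50% GC or more had a median of -0.24 and the other 15 a median of 0.05.

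Scg2, which encodes secretogranin II, held all 3 member regions that rose over the strata. Scg2 +7.5 kb (chr1:79430519-79435191) lies past the 3′ end of the gene and carries the AP-1 motif shown above. Fold enrichments were 6.45, 6.59 and 8.51 in diestrus controls and 12.6, 12.7 and 9.42 after cocaine. They were 5.07, 4.99 and 7.77 in proestrus controls and 11.02, 8.77 and 9.32 after cocaine. The groups did not overlap in either stage. In males the deposited values were 3.95, 5.37 and 7.68 in controls and 6.01 and 5.58 after cocaine, and these overlapped. After normalization the male groups were apart too, with cocaine higher, but the male difference of 0.53 did not pass (adjusted p = 0.12). On the normalized log2 scale the region rose by 0.65 in diestrus (SE 0.19, 95% CI 0.25 to 1.04, adjusted p = 0.0382), by 0.67 in proestrus (SE 0.19, 0.28 to 1.06, 0.0472) and by 0.62 on average over the strata (SE 0.11, 0.38 to 0.85, 0.0016). The average kept its call without any 1 of the 17 libraries, with adjusted p up to 0.00762, and under all 8 other settings tried (0.00049 to 0.0115). The single-stage calls did not: adjusted p reached 0.178 without diestrus cocaine library 3 and 0.177 without proestrus control library 2.

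The Scg2 promoter (chr1:79436476-79441145), with its CRE, had fold enrichments of 8.13, 9.38 and 9.13 in diestrus controls and 11.6, 18.1 and 11.9 after cocaine. It had 9.82, 11.1 and 10.5 in proestrus controls and 14.5, 12.3 and 13.8 after cocaine, so that the groups were again apart in females. In males the cocaine libraries (10.93 and 11.6) lay within the controls (10.96, 15.3 and 14.2) or just under them. It rose by 0.58 in diestrus (SE 0.18, 0.21 to 0.94, adjusted p = 0.0442) and by 0.35 on average (SE 0.11, 0.12 to 0.57, 0.034). The average lost its call in 12 of the 17 fits that left out 1 library, with adjusted p up to 0.104 without male cocaine library 2, and the diestrus value reached 0.228 without diestrus cocaine library 3.

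Scg2 -10.4 kb (chr1:79449321-79451076), upstream and with a second AP-1 motif, rose by 0.43 on average (SE 0.11, 0.21 to 0.65, adjusted p = 0.011). In proestrus the controls had 4.12, 5.69 and 5.21 and the cocaine libraries 8.51, 8.13 and 7.12, without overlap. In diestrus 7.36, 6.70 and 9.03 stood against 9.14, 14.3 and 7.81, which overlapped, and male values were 9.69, 5.92 and 7.35 against 6.78 and 6.97. No stratum passed alone, and the average kept its call without any 1 library (adjusted p up to 0.039).

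**Figure D4:**
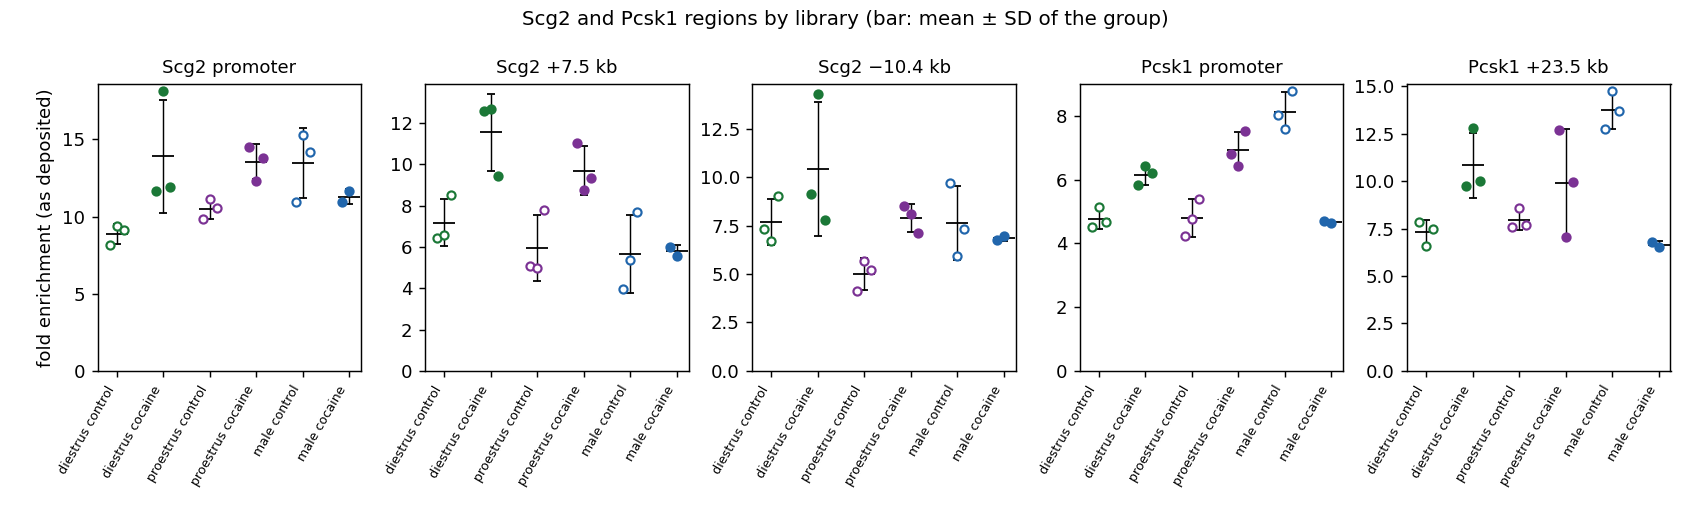
Fold enrichment as deposited at 3 Scg2 regions and 2 Pcsk1 regions in every library, by group, with the mean and SD of each group as a black bar (3 libraries a group, 2 for male cocaine). At Scg2 +7.5 kb female cocaine libraries lay between 8.77 and 12.7, and at the Pcsk1 promoter male cocaine libraries (4.70 and 4.65) lay below male controls (7.57 to 8.78).

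Pcsk1 encodes the convertase that cuts granin precursors. Its promoter (chr13:75089174-75091547) also carries a CRE, and fold enrichments there were 4.52, 5.14 and 4.67 in diestrus controls and 5.82, 6.41 and 6.20 after cocaine. They were 4.22, 4.76 and 5.40 in proestrus controls and 6.81, 6.42 and 7.54 after cocaine. In males the order was the opposite, 8.03, 7.57 and 8.78 in controls and 4.70 and 4.65 after cocaine. The 3 strata each separated as deposited, but after normalization the diestrus groups overlapped, and no single-stratum difference passed the threshold. The male effect (-0.30 on the normalized log2 scale) differed from the mean female effect (0.40) by -0.70 (SE 0.20, -1.11 to -0.28, adjusted p = 0.0229).

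Pcsk1 +23.5 kb (chr13:75111901-75115274), in an intron and with an AP-1 motif, was ordered in the same way. It had 7.87, 6.59 and 7.47 in diestrus controls and 9.73, 12.8 and 9.99 after cocaine, 7.60, 8.59 and 7.68 in proestrus controls and 12.7, 7.06 and 9.95 after cocaine, and 12.7, 14.7 and 13.7 in male controls and 6.78 and 6.51 after cocaine. As deposited only the proestrus groups overlapped, and after normalization both female stages did. The male effect (-0.60) differed from the female mean (0.38) by -0.98 (SE 0.25, -1.49 to -0.48, adjusted p = 0.012).

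Both Pcsk1 regions also differed before cocaine. Male controls were above the mean of the female controls by 0.47 (SE 0.13, adjusted p = 0.0117) at the promoter and by 0.59 (SE 0.16, 0.0104) at +23.5 kb. The sex difference in effect uses the same male controls and is therefore not separate from this. It was lost without male cocaine library 1, with an adjusted p of 0.097 at the promoter and 0.0598 at +23.5 kb.

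Peak calls gave a further view of Pcsk1. Pcsk1 +20.3 kb (chr13:75109681-75110422), an intronic region near another Pcsk1 start, had a peak in 4 of the 8 libraries after cocaine and in none of 9 controls, among them all 3 of the proestrus cocaine group. The number of its 8 kept regions called per library was 3, 2 and 2 in diestrus controls and 3, 5 and 5 after cocaine, 4, 2 and 2 in proestrus controls and 6, 5 and 6 after cocaine, and 2, 5 and 4 in male controls and 6 and 4 after cocaine. The counts of cocaine and control libraries were apart in proestrus and overlapped in diestrus and males. In a limma fit of log2(regions + 1) over 15015 protein-coding loci, Pcsk1 rose by 0.90 in proestrus (SE 0.28, adjusted p = 0.0443), the only member called higher there (7.49% of loci were), with none called lower (8.8%). It rose by 0.66 over the strata (SE 0.17, adjusted p = 0.0105), again the only member, whereas 2.18% of loci rose and 43.6% fell. The proestrus call held in 6 of the 17 fits that left out 1 library (adjusted p up to 0.137, without proestrus control library 2), and the call over the strata in all 17 (up to 0.0326). With peaks at −log10 q of 5 or more, which leave out weak ones, the differences were 0.14 and 0.07 (adjusted p = 0.654 and 0.581).

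The other secreted products showed less. Inhba, whose product is an activin subunit, had promoter differences of 0.41, 0.11 and -0.21 in diestrus, proestrus and males and differences of 0.28, 0.36 and -0.21 at its intronic region +11.8 kb, where the median fold enrichment was 13.04. None passed. The Vgf promoter region (chr5:137023218-137040164) covers the whole gene and ranged from 14.6 in diestrus cocaine library 3 to 39.8 in diestrus cocaine library 1. No cocaine difference passed there. Male controls were lower there than female controls (difference -0.41, SE 0.15, adjusted p = 0.0487).

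Among the synaptic genes, Arc had 1 region that fell. Arc +13 kb (chr15:74658818-74663287), past the 3′ end of the gene, had fold enrichments of 4.54, 5.11 and 5.59 in proestrus controls and 3.81, 3.42 and 3.56 after cocaine. It had 9.18, 5.51 and 9.11 in male controls and 4.92 and 4.30 after cocaine, and in both of these strata the groups were apart as deposited. After normalization the male groups overlapped, with a difference of -0.26 that did not pass (adjusted p = 0.41). In diestrus 5.03, 6.70 and 6.12 overlapped with 6.65, 4.91 and 3.45. It fell by 0.63 in proestrus (SE 0.16, -0.97 to -0.29, adjusted p = 0.0335) and by 0.40 on average (SE 0.10, -0.60 to -0.19, 0.0106). The average kept its call without any 1 library (adjusted p up to 0.04), and the proestrus value reached 0.107 without proestrus control library 3.

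The Arc promoter was among the strongest regions and passed in no comparison. Its fold enrichments were 33.8, 49.3 and 36.9 in diestrus controls and 46.5, 43.8 and 23.1 after cocaine, 29.6, 37.1 and 40.8 in proestrus controls and 31.6, 29.5 and 29.3 after cocaine, and 39.5, 32.5 and 34.7 in male controls and 30.7 and 29.4 after cocaine. As deposited, only the male groups did not overlap, with cocaine lower. After normalization they did, and the differences in diestrus, proestrus and males were -0.13, -0.27 and 0.09. The upstream region Arc -6.7 kb (chr15:74678223-74681227), with the CArG box, had 14.5, 15.97 and 18.7 against 20.1, 20.5 and 8.73 in diestrus, 12.9, 14.4 and 16.97 against 13.8, 13.6 and 11.4 in proestrus, and 23.3, 15.4 and 17.9 against 13.3 and 12.1 in males. The male groups were apart as deposited and overlapped after normalization, and the normalized differences of -0.15, -0.25 and -0.21 did not pass.

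Homer1 changed inside and past its gene, and its promoter region, with the highest median of the members, differed by 0.24, 0.10 and -0.04 and did not pass. There the diestrus groups overlapped as deposited, and after normalization cocaine libraries lay above all controls. In males cocaine libraries lay below all controls as deposited, and the groups overlapped after normalization. Homer1 +69.7 kb (chr13:93367481-93379517), an intronic region, had 7.01, 5.92 and 7.03 in male controls and 3.06 and 3.02 after cocaine, which were apart on both scales. In diestrus it had 5.42, 4.69 and 4.25 against 4.15, 3.27 and 3.22, also apart, and in proestrus 3.70, 3.13 and 3.22 against 3.71, 3.53 and 4.19. It fell by 0.71 in males (SE 0.16, -1.04 to -0.38, adjusted p = 0.00773) and by 0.36 on average (SE 0.09, -0.53 to -0.18, 0.00892). The average kept its call without any 1 library (adjusted p up to 0.0281), and the male value reached 0.0721 without male cocaine library 2.

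Homer1 +123.5 kb (chr13:93416604-93424935), beyond the gene, had 4.84, 5.78 and 4.94 in male controls and 2.62 and 2.79 after cocaine, and it fell by 0.60 in males (SE 0.18, -0.97 to -0.23, adjusted p = 0.0418). Female values were 3.74, 3.01 and 2.91 against 4.15, 3.77 and 4.25 in diestrus and 3.48, 4.29 and 3.41 against 3.30, 4.06 and 3.67 in proestrus. The male groups were apart on both scales. The diestrus groups were apart as deposited, with cocaine higher, and overlapped after normalization. The male effect (-0.60) differed from the female mean (0.10) by -0.69 (SE 0.21, -1.14 to -0.25, adjusted p = 0.0309). Without male cocaine library 1 the adjusted p was 0.234 for the male fall and 0.131 for the sex difference.

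Homer1 +38.8 kb differed the other way, with a male effect of 0.38 and a female mean of -0.16 (difference 0.54, SE 0.18, 0.17 to 0.91, adjusted p = 0.0432). The male fold enrichments there were 3.44, 3.03 and 3.18 in controls and 3.28 and 3.37 after cocaine, which overlapped as deposited and were apart after normalization, and the adjusted p was 0.16 without male cocaine library 2. These are wide, weak regions, and the summit that names each is that of the strongest peak of 1 library. The highest summits of 10 of the 17 libraries lay within 250 bp of it at +69.7 kb, and those of 5 at +123.5 and of 5 at +38.8 kb.

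In male controls 3 Homer1 regions differed from female controls, +69.7 kb by 0.45 (SE 0.12, adjusted p = 0.0113), +100.3 kb by 0.49 (SE 0.16, 0.0291) and +38.8 kb by -0.33 (SE 0.12, 0.0463). Nptx2, the third synaptic gene, had promoter differences of -0.33, -0.27 and 0.11, the last of them below 0 without normalization, and neither its promoter nor its other 2 tested regions passed in any comparison.

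Of the genes with nuclear or transcript-level roles, Npas4, an activity-dependent transcription factor, had 3 strong regions: the promoter, -3.9 kb (median 13.4) and -11.8 kb (median 23.8). Its promoter (chr19:4981208-4991715) had 19.7, 29.8 and 26.5 in diestrus controls and 29.0, 26.2 and 11.1 after cocaine, 18.8, 20.7 and 25.1 in proestrus controls and 18.5, 21.4 and 16.8 after cocaine, and 23.1, 14.9 and 19.5 in male controls and 17.9 and 17.3 after cocaine. The groups overlapped in each stratum as deposited and no cocaine difference passed. Male controls were below female controls at this promoter (difference -0.54, SE 0.15, adjusted p = 0.0119).

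Ier2, an immediate early gene, had 2 regions that were lower in diestrus. The promoter region, with its highest summit at -1.3 kb (chr8:84661529-84669351), had 12.3, 11.5 and 11.4 in diestrus controls and 11.3, 8.68 and 5.74 after cocaine, which were narrowly apart. In proestrus 7.18, 10.2 and 9.86 overlapped with 8.31, 13.5 and 7.85, while in males 14.7, 13.2 and 13.7 were above 8.20 and 8.83. The diestrus fall of 0.56 (SE 0.17, -0.90 to -0.21, adjusted p = 0.0398) was lost without diestrus cocaine library 3 (0.209).

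Ier2 +23.3 kb (chr8:84633111-84643173), at a start of Cacna1a and thus not clearly a region of Ier2, had 31.6, 46.1 and 38.5 in diestrus controls and 37.2, 29.9 and 22.9 after cocaine. It had 28.6, 38.1 and 37.2 against 29.1, 33.0 and 26.4 in proestrus, and both stages overlapped as deposited, while in males 39.4, 35.1 and 37.3 stood above 27.9 and 26.97. After normalization cocaine values lay below all controls in each stratum. It fell by 0.39 in diestrus (SE 0.12, -0.64 to -0.14, adjusted p = 0.0459) and by 0.26 on average (SE 0.07, -0.41 to -0.11, 0.0229). The adjusted p was 0.188 without diestrus cocaine library 2 for the diestrus value and 0.0671 without male cocaine library 1 for the average.

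Btg2, an antiproliferative gene whose product recruits deadenylases to transcripts, had promoter differences of -0.17, 0.02 and 0.14 that did not pass, the last of them below 0 without normalization. Its distal region -20.2 kb (chr1:134098834-134100046) had 8.26, 9.27 and 10.4 against 8.90, 7.55 and 5.51 in diestrus, 6.12, 5.80 and 4.83 against 5.71, 9.84 and 5.76 in proestrus, and 8.54, 6.20 and 8.12 against 7.87 and 8.83 in males. All 3 strata overlapped as deposited, and after normalization cocaine values lay below all controls in diestrus and above them in males. The male effect on the normalized scale (0.60) differed from the female mean (-0.11) by 0.70 (SE 0.24, 0.21 to 1.19, adjusted p = 0.0452), a call lost without male cocaine library 2 (0.199).

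Before cocaine, male controls differed from the mean of female controls at 8 of the 35 member regions, 4 higher and 4 lower, with 12.1% and 11.9% of all regions called. They are Scg2 +7.5 kb (-0.49, SE 0.17, adjusted p = 0.0349) and the Vgf, Pcsk1, Homer1 and Npas4 regions given above. The Scg2 difference reached an adjusted p of 0.289 without male control library 1. Diestrus and proestrus controls differed at none (0.356% and 0.114% of all regions by limma), and the smallest adjusted p was 0.167.

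Whether a region was called at all was compared for the 51 member regions present in some libraries. Fisher's exact test of cocaine against control libraries called none of the 32 member regions it could test (0% of the 64304 regions tested), and 2 had an unadjusted p under 0.05, which is 6.25% of them where 13.04% of all regions tested had one. They were Scg2 +15.4 kb, which had a peak in 8 of 8 libraries after cocaine and in 3 of 9 controls (two-sided exact p = 0.00905, adjusted 0.273), and Pcsk1 +20.3 kb (0.0294, adjusted 0.321). Scg2 +15.4 kb (chr1:79424363-79425256) also carries an AP-1 motif. A region that was not called may still hold reads at this depth.

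Complete separation, a peak in all cocaine and no control libraries of a stratum or the reverse, was found for 15 member regions, each in 1 stratum. In diestrus none was gained or lost (1.16% and 1.26% of kept regions were). In proestrus Pcsk1 +20.3 kb was gained and Arc -12.2 kb lost (2.45% and 1.64%). In males Scg2 +15.4 and Pcsk1 +46.9 kb were gained (1.66%), and 11 regions, 12.8% of the 86, were lost where 16.8% of all kept regions were. Of the 11, 7 were in Homer1, at +53.5, +82.9, +86.4, +89.1, +104.4, +106 and +114.2 kb, and Nptx2 +4.4, Inhba -3.9, Scg2 -3.9 and Btg2 +15.6 kb made up the rest with 1 each. These were weak peaks, since only 1 of the 11 reached a fold enrichment of 4 in any male control. With peaks at −log10 q of 5 or more, 7 member regions were lost in males. When each library was held to the same number of strongest peaks, none was lost in males. The share of all regions under either setting is not given.

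The number of regions called per locus gave the same picture by gene. Homer1 had 22, 22 and 23 in male controls and 11 and 8 in male cocaine libraries, and 15 to 24 in females. It fell by 1.17 in males on the log2(regions + 1) scale (SE 0.16, adjusted p = 0.000201), Inhba by 0.70 (SE 0.15, 0.00372) and Nptx2 by 0.32 (0.00025). Without male cocaine library 2 the Inhba call was lost (-0.50, adjusted p = 0.067). Nptx2 was at 4 in each male control and at 3 in all other libraries, so its small error rests on a difference of 1 region. Of all loci, 41.4% were called lower and 0.446% higher in males. The median was -0.49 over all loci and -0.27 over the members. Both male cocaine libraries had the fewest peaks, and the part of this in the member differences was not tested. With equal numbers of strongest peaks no member was called lower in males. The differences were then -0.43 for Homer1 (limma adjusted p = 0.27) and -0.42 for Inhba (0.0707), and Nptx2 showed no difference.

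In diestrus no locus was called among the members (0.646% of loci higher and 0.559% lower). Over the strata Homer1 (-0.30, adjusted p = 0.0155), Ier2 (-0.59, 0.0298), Btg2 (-0.25, 0.0375) and Nptx2 (-0.11, 0.00682) were lower. The calls of Btg2 and Ier2 held in 6 and 8 of the 17 fits that left out 1 library (adjusted p up to 0.0818 and 0.0699), and that of Homer1 was lost without male cocaine library 2 (0.06). The male effect was below the female mean for Homer1 (-1.30, SE 0.19, 0.000313), Inhba (-0.91, SE 0.18, 0.00236) and Nptx2 (-0.32, 0.00075), where 28.2% of loci were lower and 0.579% higher.

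**Figure D5:**
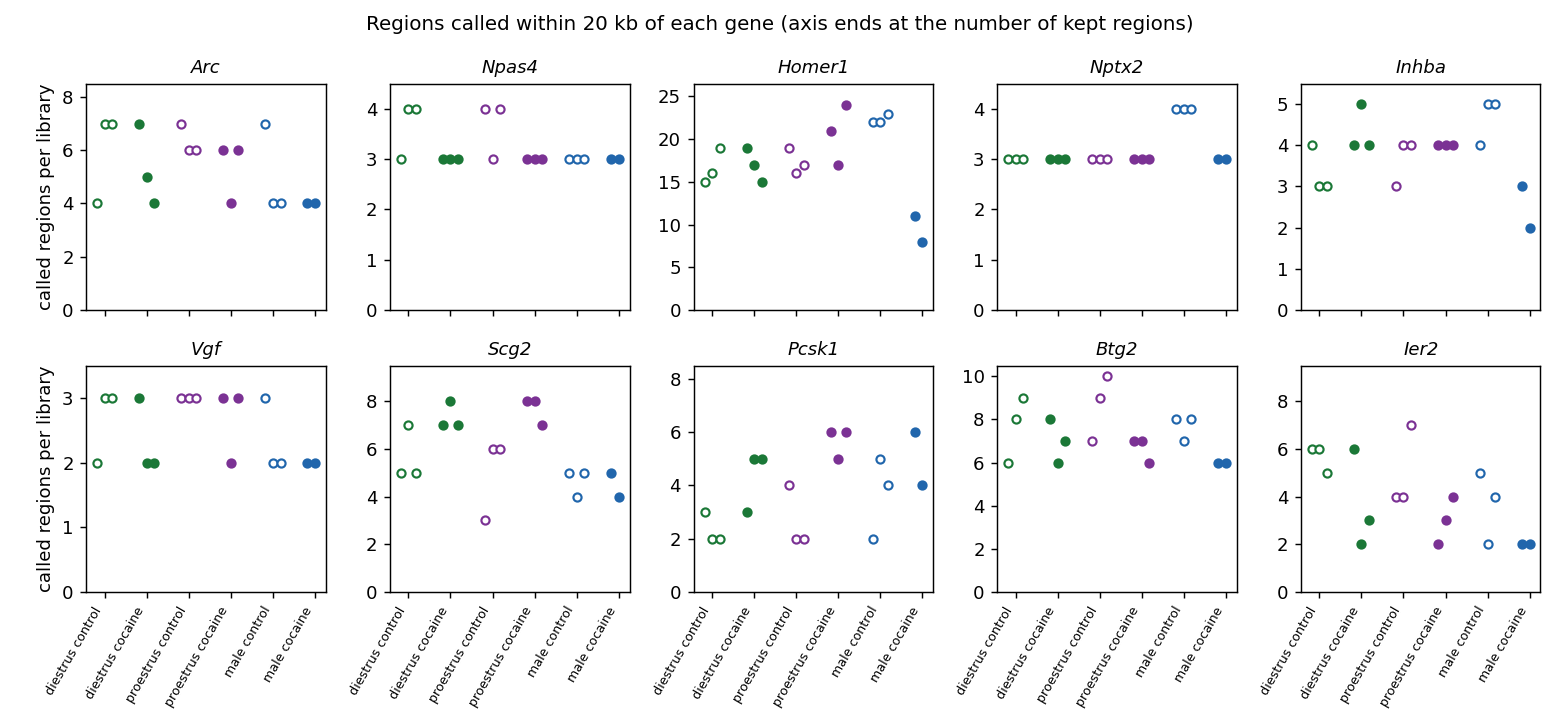
Number of kept regions called in each library at the locus of each gene, by group. Pcsk1 had 5 or 6 in proestrus cocaine libraries and 2 to 4 in their controls, and Homer1 had 22 or 23 in male controls and 11 and 8 in male cocaine libraries.

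Promoters of related genes were read beside those of the members. Of 34 other activity-induced genes, 32 had a promoter region in all libraries. In diestrus 2 were higher after cocaine, Plk2 (0.47), which encodes a kinase of synaptic downscaling, and Rgs2 (0.51), a regulator of G protein signalling, and 1 was lower, the protease gene Mmp9 (-0.72). Of all regions, 4.65% were higher and 4.59% lower there, and only 0.0434% were called without diestrus cocaine library 3. None passed in proestrus or in males, and the median change in diestrus was 0.13. Over the strata Plk2 (0.25), Tiparp (0.27) and Rgs2 (0.27) were higher and none lower (6.61% and 6.95% of all regions). The male effect was above the female mean at Per1 (0.57) and Mmp9 (0.71) and below it at Jun (-0.76), Nr4a3 (-0.53) and Ptgs2 (-0.79). Of all regions, 8.17% were above and 8.29% below it. Male controls already differed from female controls at Jun (0.49, limma adjusted p = 0.0217) and Per1 (-0.39, 0.0228). They were also lower at Fosb (-0.46) and Sik1 (-0.35). The sex difference in effect uses the same male controls and is not separate from this. Jun, Nr4a3 and Ptgs2 encode the AP-1 partner, an orphan nuclear receptor and the inducible cyclooxygenase.

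Of 27 family members and partners of the 10 genes, 22 had a promoter region in all libraries. In diestrus Gria4 (0.46), an AMPA receptor subunit, Btg1 (0.65) and Btg3 (0.53) were higher and the scaffold Shank1 (-0.76) was lower. There 4.65% of all regions were higher and 4.59% lower, and without diestrus cocaine library 3 only 0.0434% were called. None passed in proestrus or males. Over the strata Btg1 was higher (0.30) and Shank1 lower (-0.36), where 6.61% and 6.95% of all regions were. The male effect was above the female mean at Shank1 (0.68) and Nptx1 (0.57), with 8.17% of all regions above and 8.29% below it. Male controls were lower than female controls at Shank3 (-0.36, limma adjusted p = 0.0324), as were 11.9% of all regions. Of the members' own 10 promoters, 1 was higher (Scg2) and 1 lower (Ier2) in diestrus, none passed in proestrus or males, and 1 was higher over the strata (Scg2).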

How the data were processed

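Each library was 1 ATAC-seq pool of NeuN+ nuclei. The authors trimmed adapters, aligned reads to mm10 with BWA-MEM and called peaks in each library with MACS2 (versions not given in the sources used here). The deposited peaks carry a score, a fold enrichment (a ratio of the summit pileup to background) and −log10 p and −log10 q values, which the authors' caller set for 1 library at a time. The authors tested read counts with DESeq2. Counts were not used here.

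The genes and the lists beside them were chosen with earlier results of these data known. Groups followed sample titles. Overlapping peaks (by at least 1 bp, autosomes and X) were joined into 281189 regions, and regions called in at least 2 libraries of a group were kept. The highest fold enrichment per region was log2-transformed, quantile-normalized and fitted over all 6 groups with limma 3.58.1 in R 4.3.3, without a replicate block. Locus counts were fitted likewise with a pseudocount of 1, for genes with at least 3 kept regions. Fisher's exact test (scipy 1.17.1) covered regions called in 4 to 13 libraries. Adjusted p-values are Benjamini-Hochberg values over all features, and they measure the spread between pools. Named were the promoters (within 1 kb of the gene start), every member region that passed a test, was gained or lost, and the strongest other region of each gene. Promoters of other lists were named where they passed. Scripts were tested on simulated data. Coordinates are counted from 1. Blacklisted regions were not removed here.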

Additional observations from a re-analysis of the deposited data

Results flagged for a closer look

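The male and the mean female effect of cocaine differed past the threshold, by limma on the difference itself, at 5 member regions and 3 loci. Of the 35 member regions tested, 2 were higher and 3 lower in males, and 8.17% and 8.29% of all regions were. At the Pcsk1 promoter the male effect minus the female mean was -0.70 and at Pcsk1 +23.5 kb it was -0.98. At both regions male cocaine libraries lay below all male controls, as deposited and after normalization. After normalization female cocaine libraries lay above all controls in proestrus at the promoter and overlapped with them elsewhere. At Homer1 +123.5 kb the difference was -0.69, with male cocaine libraries below all male controls on both scales and the female groups overlapping after normalization. It was 0.54 at Homer1 +38.8 kb and 0.70 at Btg2 -20.2 kb, where the male groups overlapped as deposited and cocaine libraries lay above controls after normalization.

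For the number of called regions per locus, the difference was -1.30 for Homer1, -0.91 for Inhba and -0.32 for Nptx2 on the log2(regions + 1) scale. Both male cocaine libraries had the fewest peaks, and 28.2% of all loci were lower in this comparison. With equal numbers of strongest peaks Inhba was called (-0.81, limma adjusted p = 0.00753), and Homer1 (-0.30, 0.485) and Nptx2 were not.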

How the results depend on the processing

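Peak strength was called at 4 member regions in diestrus, 2 in proestrus, 2 in males, 6 over the strata and 5 in the sex comparison. Without normalization these numbers were 0, 0 and 11 in the 3 strata and 9 in the sex comparison. Of all 36847 regions, 116 were then higher and 12116 lower in males, and 175 and 13794 in the sex comparison. Median centring gave 1 in proestrus, with 599 of all regions higher and 629 lower. Shares of all regions under the settings that follow are not given, so those member counts cannot be set beside them. Fitting regions called in at least 13 libraries gave 1 in diestrus and 1 in proestrus, and −log10 p as strength gave 0 and 1. The GC correction, chosen after seeing the data, gave 1 in proestrus, 4 in males and 3 in the sex comparison. The replicate block gave 1, 0 and 1 in the strata, 3 over the strata and 0 in the sex comparison, and the block with the GC correction 2, 0, 1 and 0 in the strata and the sex comparison. Replicate numbers did not pair the samples: their correlations ran from -0.228 to 0.149. The control comparisons have no blocked fit.

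With 1 library left out, the numbers ran from 0 to 17 in diestrus, 0 to 4 in proestrus, 0 to 4 in males, 4 to 12 over the strata, 0 to 13 in the sex comparison, 3 to 10 between male and female controls, and stayed at 0 between stages for effects and for controls. In diestrus, 17 was reached without cocaine library 1, when 27.6% of all regions were called, and leaving out any other diestrus library gave 0 or 1. No difference past the threshold at a named region reversed, while without normalization 14 of the 35 male differences, 3 in proestrus and none in diestrus, all short of the threshold, had another sign. Of the values past it under other settings 129 kept the call and 71 lost it, and with 1 library left out 313 kept it and 146 lost it.

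Males gained 2 member regions and lost 11, proestrus females gained 1 and lost 1, and diestrus females had none of either. For the settings that follow, shares of all kept regions are not given, so these member counts cannot be set beside them. At −log10 q of 5 or more males gained 1 and lost 7, proestrus females gained 3 and lost 0, and diestrus females gained 2 and lost 3. With equal numbers of strongest peaks, 3 and 1, 2 and 0 were found in females and none was lost in males. With windows of 5 kb none was lost in proestrus and 1 was gained in males. Leave-out ranges were 2 to 3 gained and 11 to 16 lost in males, 2 to 4 and 1 to 4 in proestrus, 0 to 3 and 0 to 2 in diestrus, and 0 for Fisher's test. Leaving out a library loosens the rule for gained and lost regions. Those ranges therefore could not fall below the counts with all libraries, and they do not test them.

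Loci called were 0 in diestrus, 1 in proestrus, 3 in males, 5 over the strata and 3 in the sex comparison. Shares of all loci under the settings that follow are not given, so these member counts cannot be set beside them. Peaks at −log10 q of 5 or more gave 2 in proestrus, and merging at 50 bp gave 2. With equal numbers of strongest peaks the numbers were 3 in proestrus, 0 in males, 2 over the strata and 1 in the sex comparison. Using all merged regions gave 3 over the strata, as did windows of 5 kb. The replicate block gave 0 in proestrus, 0 over the strata and 1 in the sex comparison. Leave-out ranges were 0 to 2, 0 to 1, 2 to 3, 2 to 6 and 3 to 3. The causes of these shifts were not tested. Peaks carry no read counts, and the number of libraries, 2 in male cocaine, limits the precision.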
